A study of Homo sapiens with 3 samples.

Results

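The EGF receptor family and its ligands were followed in SW620 cells, an established colorectal cancer line, on 3 Affymetrix arrays. The 9 genes chosen were the receptors EGFR, ERBB2, ERBB3 and ERBB4 and the ligands AREG, EREG, TGFA, HBEGF and BTC. Their probe sets, the groups of short oligonucleotides that each report on a transcript, were all those with exactly 1 gene symbol that was one of these names. These were 32 of the 54675 probe sets on each array, and they covered 8 of the 9 genes. No probe set had AREG as its single symbol in the annotation used here, so AREG was not analysed here.

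Each group was 1 array. The first was from cells given a LATS2 virus, encoding the whole of this Hippo pathway kinase. The second was from cells given a LATS2N virus, encoding residues 1 to 625, a fragment without the kinase domain. The third was from cells infected with an empty-vector control virus. The sample labels name SW620 throughout, while the series' design text names SW480 and describes stable expression, and the sample labels are followed here. With 1 array a group there is no spread between replicates, no test and no p-value for any difference, and all values below describe these 3 arrays.

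Receptors of this family sit in the plasma membrane and pair when a ligand binds, which switches on their tyrosine kinase and, through adaptors, the RAS-ERK and PI3K-AKT branches. ERBB2 has no known ligand of its own and serves as a partner, and ERBB3 has a weak kinase and signals mainly through partners. The ligands are made as membrane-anchored precursors and are cut free by proteases such as ADAM17 and ADAM10. In colorectal epithelium and its cancers the pathway drives growth, and EGFR is a target of antibody treatment.

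Promoter windows of 3 members are printed because these were among the genes whose signals stood highest above control on at least 1 construct array: EREG on LATS2N, ERBB2 on LATS2, and TGFA on both. Each window is 300 bases, 250 before and 50 after the RefSeq start, 5′ to 3′ on the gene's strand, in build GRCh38.p14. Capitals mark every match, on either strand, to 1 of 6 motifs: TATAAA for the TATA box, TGANTCA (N for any base) for AP-1, TGACGTCA for the cyclic AMP element, GGAATG for TEAD, GGGCGG for Sp1 and CCGGAAGT for ETS factors. No motif overlaps another in these windows. The EREG window is chr4:74364895-74365194 on the plus strand, the ERBB2 window chr17:39687844-39688143 on the plus strand, and the TGFA window chr2:70553777-70554076 on the minus strand, the first of 2 listed for that gene.
EREG: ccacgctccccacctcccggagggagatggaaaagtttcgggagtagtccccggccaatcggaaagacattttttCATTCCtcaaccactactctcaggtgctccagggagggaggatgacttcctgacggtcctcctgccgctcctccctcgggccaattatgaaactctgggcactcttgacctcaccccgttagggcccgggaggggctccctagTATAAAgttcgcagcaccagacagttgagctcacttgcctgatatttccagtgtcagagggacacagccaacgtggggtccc
ERBB2: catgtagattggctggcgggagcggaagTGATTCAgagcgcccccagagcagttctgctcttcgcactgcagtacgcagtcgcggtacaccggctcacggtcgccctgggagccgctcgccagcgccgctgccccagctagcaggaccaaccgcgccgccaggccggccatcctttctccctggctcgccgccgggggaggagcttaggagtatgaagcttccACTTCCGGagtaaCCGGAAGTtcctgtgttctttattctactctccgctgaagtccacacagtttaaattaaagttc
TGFA: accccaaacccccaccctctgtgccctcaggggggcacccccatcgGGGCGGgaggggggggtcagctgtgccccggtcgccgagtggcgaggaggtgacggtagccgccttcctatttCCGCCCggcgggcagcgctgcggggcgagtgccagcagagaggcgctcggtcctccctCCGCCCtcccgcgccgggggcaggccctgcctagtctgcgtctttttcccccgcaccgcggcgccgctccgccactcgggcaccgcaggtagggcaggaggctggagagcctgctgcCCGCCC

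The 3 windows hold different motifs. EREG has TATAAA beginning 32 bases before the start and GGAATG, on the minus strand, beginning 175 bases before it. Over 35116 promoter windows of all genes, TATAAA was in 11.5% and GGAATG in 14.0%, and TGACGTCA, which is in none of the windows printed, was in 1.85%. ERBB2 has CCGGAAGT at 27 and at 14 bases before the start, on opposite strands, a motif that 4.14% of all windows hold. It also has a match to TGANTCA, with the letters TGATTCA, at 222 bases before the start. That pattern reads the same on both strands, and 7.71% of all windows hold it. TGFA has 4 matches to GGGCGG, which is in 45.0% of all windows, and a G and C content of 75.3%, against 57.7% for EREG, 60.7% for ERBB2 and a median of 58.7% over all windows. A promoter window was matched by symbol for 8 of the 9 members, and ERBB3 had none. Of the windows not printed, HBEGF had 5 matches to GGGCGG the first of 2 EGFR windows had 3, and the second had 2 matches to TGANTCA. A match is a description of the letters only.

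A few facts of the arrays frame the values. Signals are the deposited MAS5 values on a linear scale, and the median of all signals, 50.5, served as a floor. Lower signals were raised to it for ratios, and no ratio was taken where both arrays lay below it. LATS2 itself read 219 on the LATS2, 219 on the LATS2N and 206 on the control array with one probe set above the floor, and 377, 409 and 385 with the other. Which part of the transcript these probe sets read is not given in the sources used here, so they do not check the labels, and the arrays are named by their labels. Of 11 epithelial markers, 8 were above the floor on all 3 arrays, led by KRT18, KRT8, KRT19 and EPCAM, while KRT20 read 112, 127 and 109 and CDX1, CEACAM5 and LGALS4 were each below the floor on 2 of the 3 arrays. These last 4 were chosen after their values were seen. Of 11 measured markers of other cell types, 3 (LUM, COL1A1 and PECAM1) were above the floor on all 3 arrays and 5 below it on all. In that list 1 gene was called at 2-fold, ACTA2, the smooth muscle actin, which read 103 on the LATS2, 100.02 on the LATS2N and 46.7 on the control array. Its control signal lay below the floor, so it was at least 2.04-fold higher on LATS2 and at least 1.98-fold higher on LATS2N than on control. COL1A1, a collagen, read 596, 607 and 325 on the same arrays, and LUM, a matrix proteoglycan, 1884, 1635 and 1519. PECAM1, an endothelial adhesion molecule, was lower on both construct arrays, with log2 ratios over control of -0.74 for LATS2 and -0.64 for LATS2N, and CD14, a monocyte receptor, read 93.2, 48.4 and 73.5. The fibroblast genes COL1A2 and COL3A1 were below the floor on all arrays, as were PTPRC, CD3E and VWF, and DCN, another fibroblast gene, read 23.5, 62.6 and 57.3. Summed over these 11 markers the signal was 2844 on the LATS2, 2653 on the LATS2N and 2265 on the control array, and summed over the epithelial markers it was 130564, 132047 and 124439. Of the 9 epithelial markers that reached the floor for LATS2 over control, 6 had ratios above 0 and 3 below. Below 0 were KRT19, CDH1 and VIL1. CDH1 read 2792 on the LATS2, 3567 on the LATS2N and 4421 on the control array, and VIL1 read 3948, 4666 and 5013. CDH1 and VIL1 were named after their values were seen. The part of these markers in the values below was not tested.

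No member reached a 2-fold difference between any 2 arrays. Of the 7 members whose brighter array reached the floor, 0 were called higher or lower at 2-fold on the LATS2 array against control, where 1.80% of 13186 genes were called. The count was also 0 of 7 for LATS2N against control, where 1.51% of 13245 genes were called, and 0 of 7 for LATS2 against LATS2N, where 1.59% of 13175 were. At 1.5-fold the members called were again 0 of 7 in each comparison, beside 10.3%, 8.13% and 9.34% of all genes. In these cell populations, fewer cells that express a gene and less RNA per cell cannot be told apart.

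**Figure D1:**
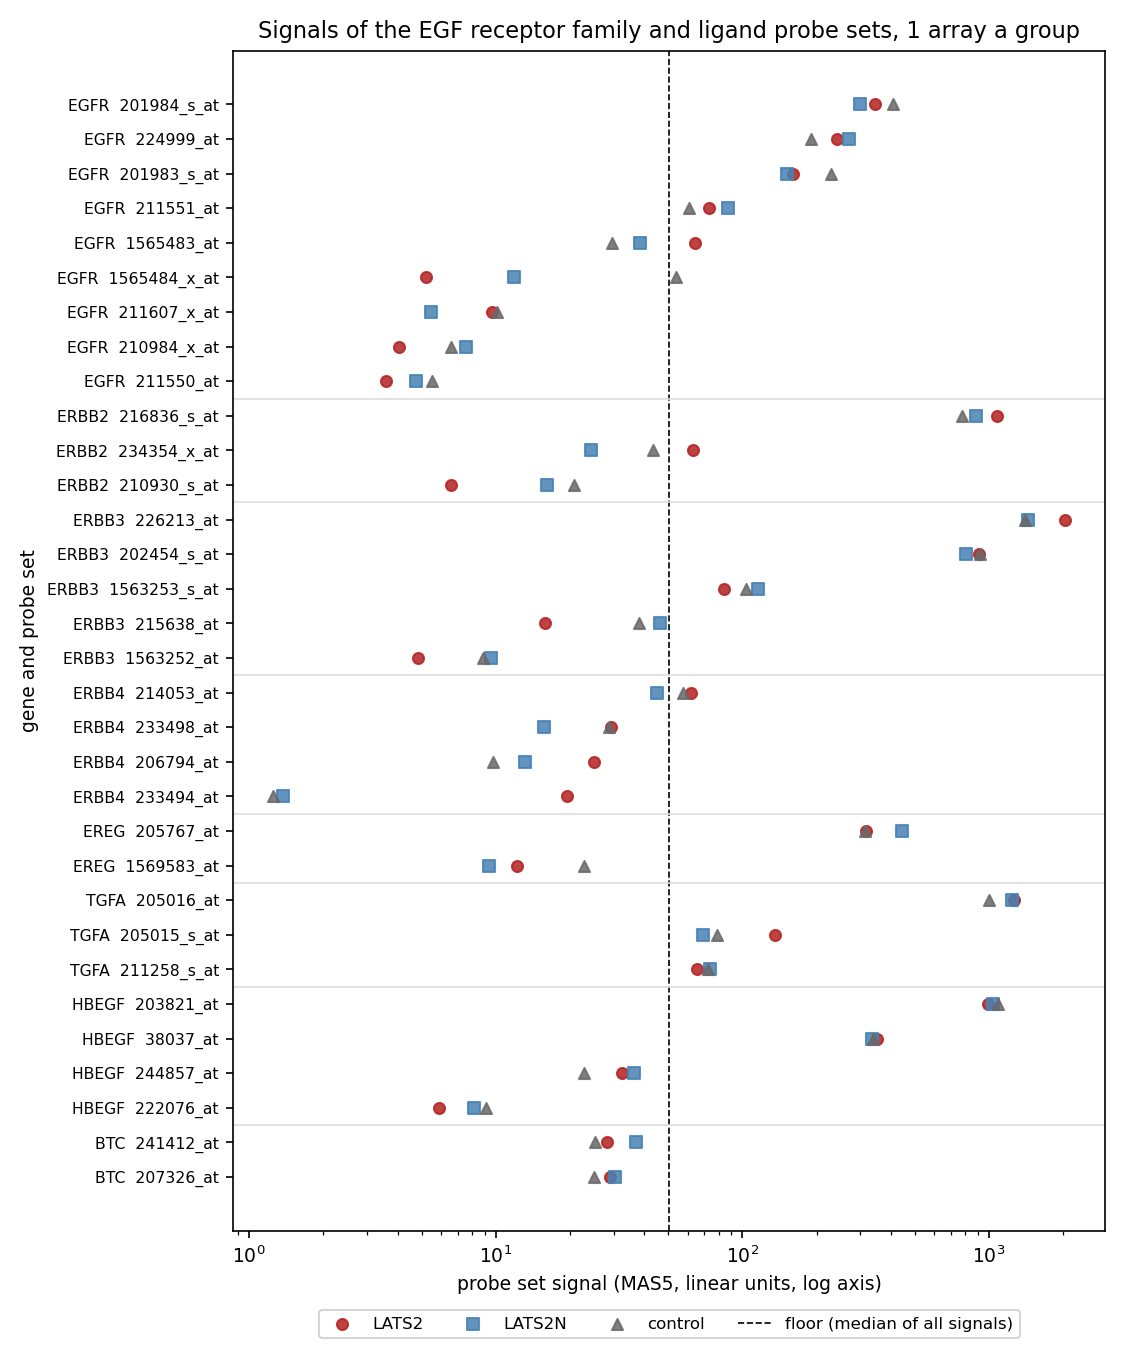
Signal (horizontal, MAS5 linear units on a log axis) of the 32 probe sets for 8 genes of the family (vertical) on the LATS2 (circles), LATS2N (squares) and control (triangles) arrays, 1 array each, with the floor of 50.5 as a dashed line. For 14 probe sets all 3 points lie right of the floor, and for 14 others, including both of BTC, all 3 lie left of it.

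Of the 32 probe sets, 14 were above the floor on all 3 arrays, 4 on 1 or 2 arrays and 14 on none. The 14 covered 6 genes: EGFR with 4, ERBB3 and TGFA with 3 each, HBEGF with 2, and ERBB2 and EREG with 1 each. The widest ratio among the members' probe sets was 1.71-fold for LATS2 over control and 1.52-fold lower for LATS2N against control, and 1.96-fold for LATS2 over LATS2N, so no single probe set reached 2-fold either. Below, the brightest probe set by mean log2 signal stands for a gene. There are no replicates, so the error given with a log2 ratio comes from pairs of probe sets for 1 gene at the same brightness. It is the robust SD of the difference between their log2 ratios, divided by the square root of 2, and so that of 1 probe set. This spread covers noise between probe sets and not differences between cultures.

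ERBB3, the receptor that depends on its partners' kinases, had the highest ratio of the family on the LATS2 array. Its representative probe set 226213_at read 2034 on the LATS2, 1437 on the LATS2N and 1395 on the control array. The LATS2 array stood above both others, which differed from each other by 1.03-fold. The log2 ratio was 0.54 for LATS2 over control, or 1.46-fold, with a spread of 0.17, and 0.50 for LATS2 over LATS2N, with a spread of 0.14. Of all genes that reached the floor, 6.96% had a ratio at least as high for LATS2 over control.

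The other ERBB3 probe sets did not show this. Probe set 202454_s_at, annotated to the RefSeq mRNA of ERBB3, read 912 on the LATS2, 804 on the LATS2N and 918 on the control array, a log2 ratio of -0.01 for LATS2 over control and -0.19 for LATS2N. The dim probe set 1563253_s_at read 84.5, 115 and 103 on the same arrays. The gap between the highest and lowest ERBB3 ratio for LATS2 over control was thus 0.83 on the log2 scale, and 14.3% of the 1485 genes with 3 probe sets above the floor had a gap as wide. Which parts of the transcript the probe sets read is not given in the sources used here. The higher ERBB3 signal on the LATS2 array therefore rests on 1 of 3 probe sets.

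ERBB2, the receptor with no ligand of its own, read 1077 on the LATS2, 884 on the LATS2N and 773 on the control array. Both construct arrays were above control, LATS2 more so. The log2 ratio was 0.48 for LATS2 over control, or 1.39-fold, with a spread of 0.17, and 0.19 for LATS2N over control, with a spread of 0.14. As high a ratio was found for 8.92% of all genes in the first comparison and 24.0% in the second. This is 1 probe set, 216836_s_at, and no other was above the floor on all 3 arrays: 234354_x_at read 63.0, 24.2 and 43.2 on the same arrays, and 210930_s_at was below the floor throughout. GRB7, an adaptor whose gene lies close to ERBB2, read 476 on the LATS2, 448 on the LATS2N and 392 on the control array. GRB7 was singled out after its values were seen. Other genes around ERBB2 are not given here, and a shared change of that stretch was not tested.

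EGFR, the receptor that these ligands bind, was read by 9 probe sets, of which 4 were above the floor on all arrays, and those 4 went opposite ways. The representative 201984_s_at, annotated to the RefSeq mRNA, read 345 on the LATS2, 300 on the LATS2N and 408 on the control array, and 201983_s_at read 161, 151 and 229. On these probe sets both construct arrays were below control, with log2 ratios for LATS2N over control of -0.44 and -0.60. Probe set 224999_at instead read 241 on the LATS2, 271 on the LATS2N and 190 on the control array, and 211551_at read 73.2, 87.6 and 60.8. On those both construct arrays were above control, with log2 ratios for LATS2N over control of 0.51 and 0.53.

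The EGFR probe sets therefore give no single direction. The gap between the highest and lowest ratio was 1.13 on the log2 scale for LATS2N over control, and 6.83% of the 586 genes with 4 probe sets above the floor had a gap as wide. For LATS2 over control it was 0.86, and 23.7% of those genes had a gap as wide. The spreads, each for 1 probe set, were 0.21, 0.30, 0.40 and 0.30 for 201984_s_at, 201983_s_at, 211551_at and 224999_at. Each of the 4 LATS2N ratios was larger than this spread of its own probe set. Of the other 5 probe sets, 3 were below the floor on all arrays and 2 reached it on 1 array.

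**Figure D2:**
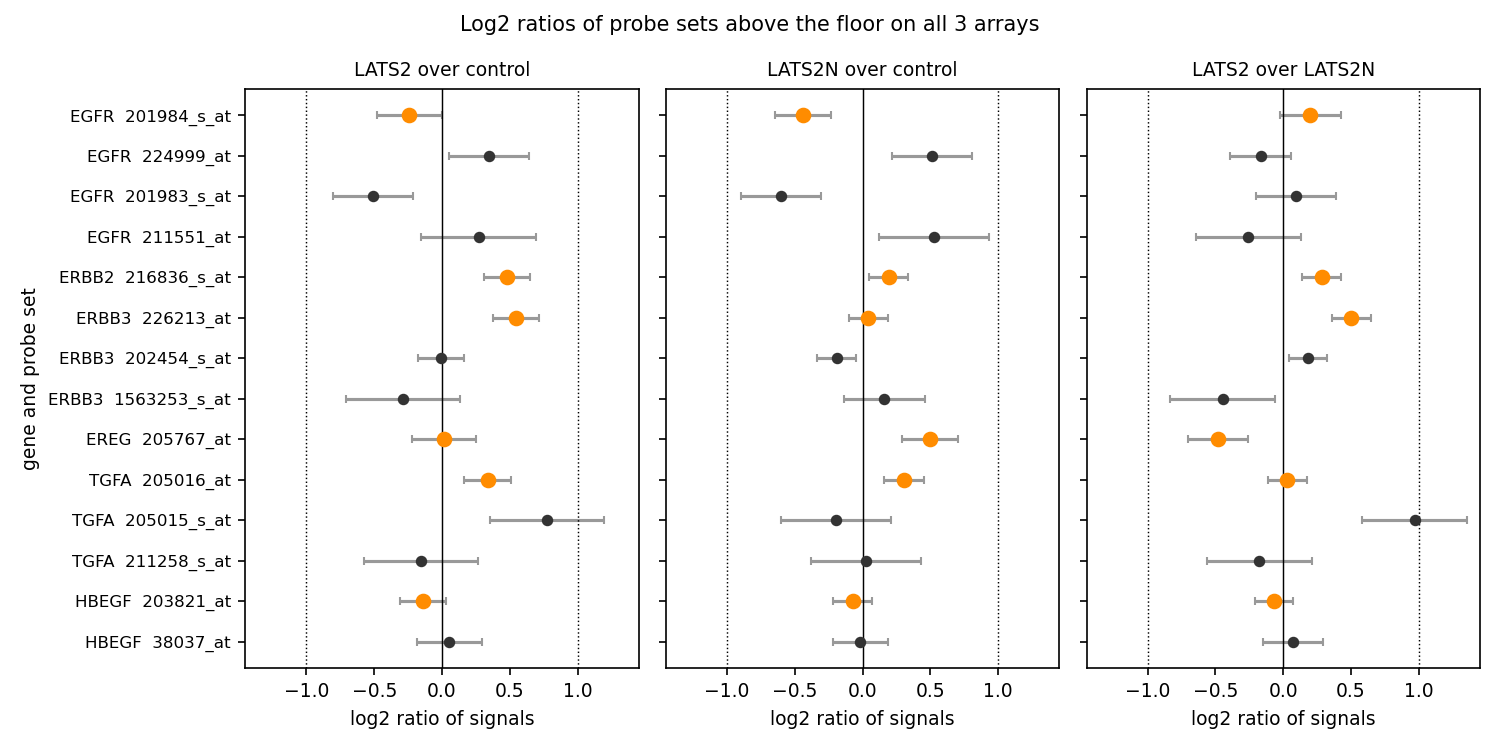
Log2 ratio of signals (horizontal) of the 14 probe sets above the floor on all 3 arrays (vertical), for LATS2 over control, LATS2N over control and LATS2 over LATS2N. Orange points are the probe sets that stand for a gene, and dotted lines mark 2-fold. Bars are the robust SD of 1 probe set, taken from pairs of probe sets of 1 gene at that brightness. EGFR has 2 points left and 2 right of 0 in both comparisons with control.

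ERBB4, which binds the neuregulins and several EGF-like ligands, was at or near the floor. Its brightest probe set, 214053_at, read 61.7 on the LATS2, 45.0 on the LATS2N and 57.3 on the control array, and its other 3 stayed below 50.5 on every array. At such signals the spread between probe sets is 0.42 on the log2 scale, wider than the log2 ratio of 0.11 for LATS2 over control. No difference of ERBB4 was measurable at this brightness.

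EREG, which encodes epiregulin, a ligand of EGFR and ERBB4, differed on the LATS2N array. Probe set 205767_at, annotated to its RefSeq mRNA, read 318 on the LATS2, 444 on the LATS2N and 314 on the control array. The LATS2N array stood apart, while the other arrays differed by 1.01-fold. The log2 ratio was 0.50 for LATS2N over control, or 1.41-fold, with a spread of 0.21, and -0.48 for LATS2 over LATS2N, with a spread of 0.22. A ratio at least as high was found for 6.86% of all genes in LATS2N over control, and one at least as low for 7.29% in LATS2 over LATS2N. The second EREG probe set, 1569583_at, read 12.2, 9.41 and 22.8 on the same arrays, all below the floor, so it gives no ratio of its own. Taken from the median signal of both probe sets on each array, the log2 ratio for LATS2N over control was -0.39. Its opposite sign comes from the signals of 1569583_at below the floor, which that median takes in.

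TGFA, which encodes transforming growth factor alpha, a ligand of EGFR, was above control on both construct arrays with its bright probe set. Probe set 205016_at, annotated to the RefSeq mRNA, read 1267 on the LATS2, 1240.0 on the LATS2N and 1004 on the control array. The log2 ratio was 0.34 for LATS2 over control and 0.31 for LATS2N over control, or 1.26-fold and 1.24-fold, with spreads of 0.17 and 0.14. Both comparisons share the 1 control array. Taken from the median signal of the TGFA probe sets on each array, the log2 ratio for LATS2N over control was -0.10. That value sets 211258_s_at on the LATS2N array against 205015_s_at on the control array. Each with itself, 205016_at, 205015_s_at and 211258_s_at had log2 ratios of 0.31, -0.20 and 0.02 for LATS2N over control. A ratio as high as that of 205016_at was found for 15.7% of all genes with LATS2 and 14.5% with LATS2N.

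The dim TGFA probe sets differed from it. Probe set 205015_s_at read 135 on the LATS2, 68.9 on the LATS2N and 79.1 on the control array. With signals raised to the floor it had the family's widest ratio, 1.96-fold for LATS2 over LATS2N. The log2 ratio was 0.97 and the spread 0.39. Probe set 211258_s_at read 65.1, 73.6 and 72.4 and showed no such height on the LATS2 array. For LATS2 over LATS2N the 3 probe sets spanned 1.15 on the log2 scale, and 2.76% of the 1485 genes with 3 probe sets above the floor spanned as much.

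HBEGF, which encodes the heparin-binding ligand of EGFR and ERBB4, was close to level across the arrays. Probe set 203821_at read 988 on the LATS2, 1036 on the LATS2N and 1089 on the control array, and 38037_at read 350.4, 334 and 338. The log2 ratios against control were -0.14 and 0.05 for LATS2 and -0.07 and -0.02 for LATS2N, each within the spread between probe sets at that brightness, which was 0.14 to 0.24. With 1 array a group, this does not show that HBEGF was equal. The other 2 HBEGF probe sets were below the floor on all arrays.

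BTC, which encodes betacellulin, another ligand of EGFR and ERBB4, was below the floor on all arrays with both probe sets, at 28.3 on the LATS2, 37.0 on the LATS2N and 25.3 on the control array with the brighter one. The ligands of the same receptors outside the 9 genes were dim too. EGF, NRG3 and NRG4 had 1 probe set each, below the floor on every array, and 5 of the 6 for NRG1 and 2 of the 3 for NRG2 were below it as well. The exceptions were 208232_x_at of NRG1, which read 12.5 on the LATS2, 16.5 on the LATS2N and 61.7 on the control array, and 242303_at of NRG2, which read 57.3, 50.3 and 82.3. EPGN had no probe set with 1 symbol and was not analysed here.

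For the family as a group, median log2 ratios are set beside those of all genes, and a difference between them was not tested. The median log2 ratio of the 7 members that reached the floor was 0.11 for LATS2 over control, 0.04 for LATS2N over control and 0.20 for LATS2 over LATS2N, beside medians over all genes of 0.03, 0.02 and 0.01. Of these members 5 were above 0 and 2 below in the first comparison, 4 and 3 in the second, and 5 and 2 in the third. The range was from -0.24 to 0.54, from -0.44 to 0.50 and from -0.48 to 0.50.

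**Figure D3:**
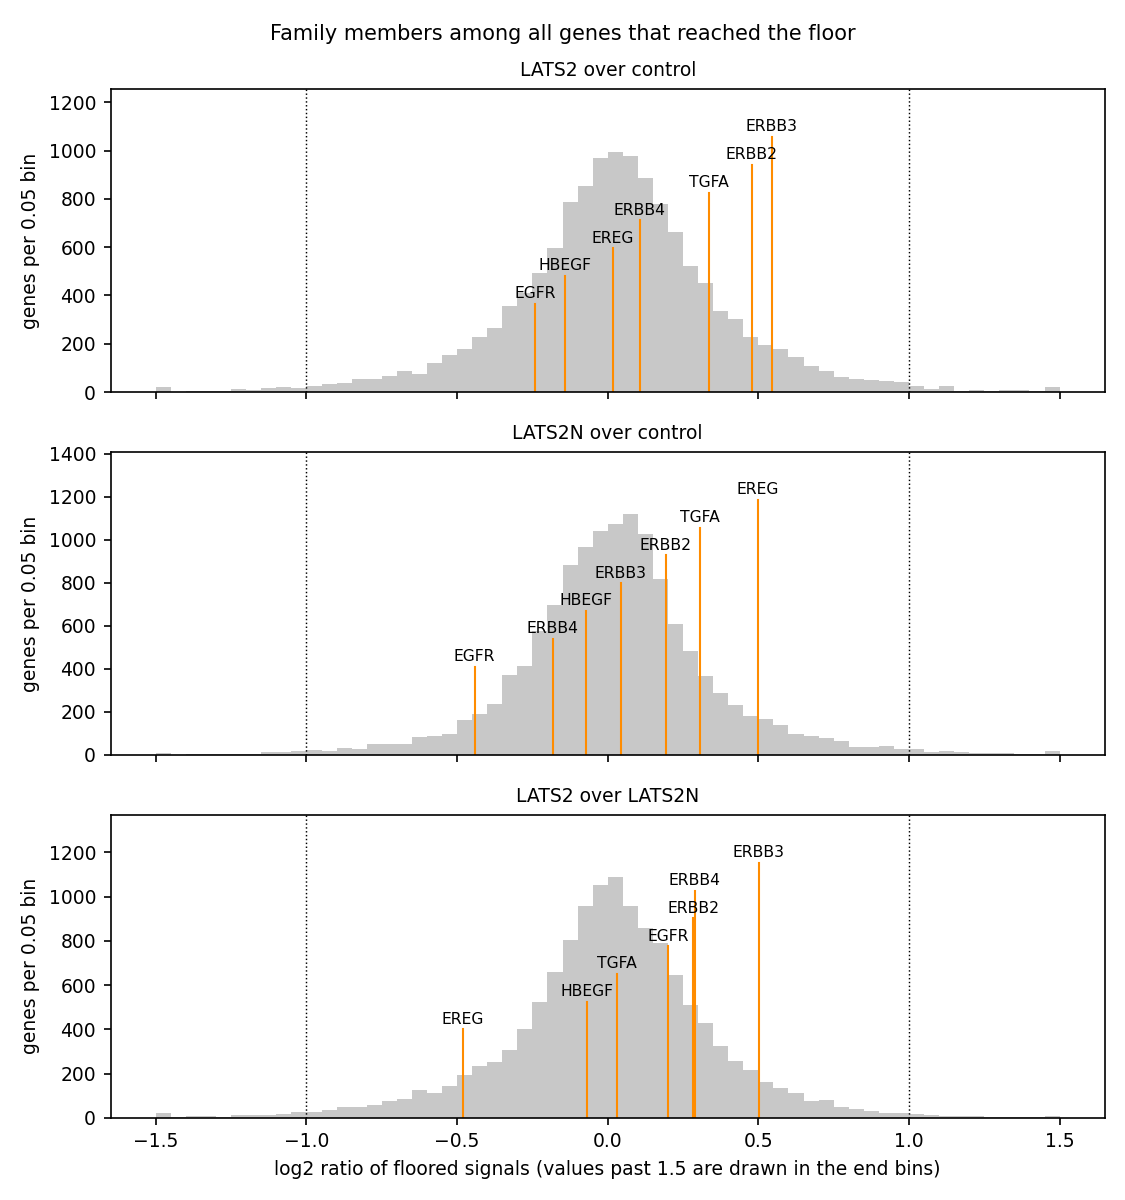
Number of genes per 0.05-wide bin (vertical) by log2 ratio of floored signals (horizontal) for LATS2 over control, LATS2N over control and LATS2 over LATS2N, with the 7 members that reached the floor as orange lines (line height only separates the names) and dotted lines at 2-fold. All members lie between the dotted lines, with ERBB3 at 0.54 the highest for LATS2 over control and EREG at 0.50 the highest for LATS2N over control.

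EREG lies on chromosome 4 in a stretch of the RefSeq gene table that also holds AREG, EPGN and BTC and, on one side, the CXC chemokine genes. Among the 10 protein-coding genes on each side of the EREG and AREG pair, CXCL6, CXCL1, CXCL3 and CXCL2, which encode attractants of neutrophils, were above the floor on all arrays. CXCL1 read 2411 on the LATS2, 5658 on the LATS2N and 3458 on the control array, and CXCL3 read 484, 1139 and 847. The 4 chemokine genes were below control on the LATS2 array, with log2 ratios from -0.81 to -0.34, whereas EREG had 0.02. On the LATS2N array they were above control, with log2 ratios from 0.14 to 0.71, and EREG had 0.50. MTHFD2L, an enzyme of folate metabolism between these chemokine genes and EREG, had log2 ratios of 0.04 and 0.10 for LATS2 and LATS2N over control. On the other side, PARM1, which encodes a membrane protein, read 101 on the LATS2, 30.3 on the LATS2N and 141 on the control array, at least 2.78-fold lower on LATS2N than on control. CDKL2, a kinase gene, had log2 ratios over control of -0.85 and -0.72, and RCHY1, THAP6, G3BP2 and NAAA lay between -0.09 and 0.35 on both construct arrays. Of the 22 genes in the stretch 19 were measured, and 5 of these, BTC included, were below the floor on all arrays.

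**Figure D4:**
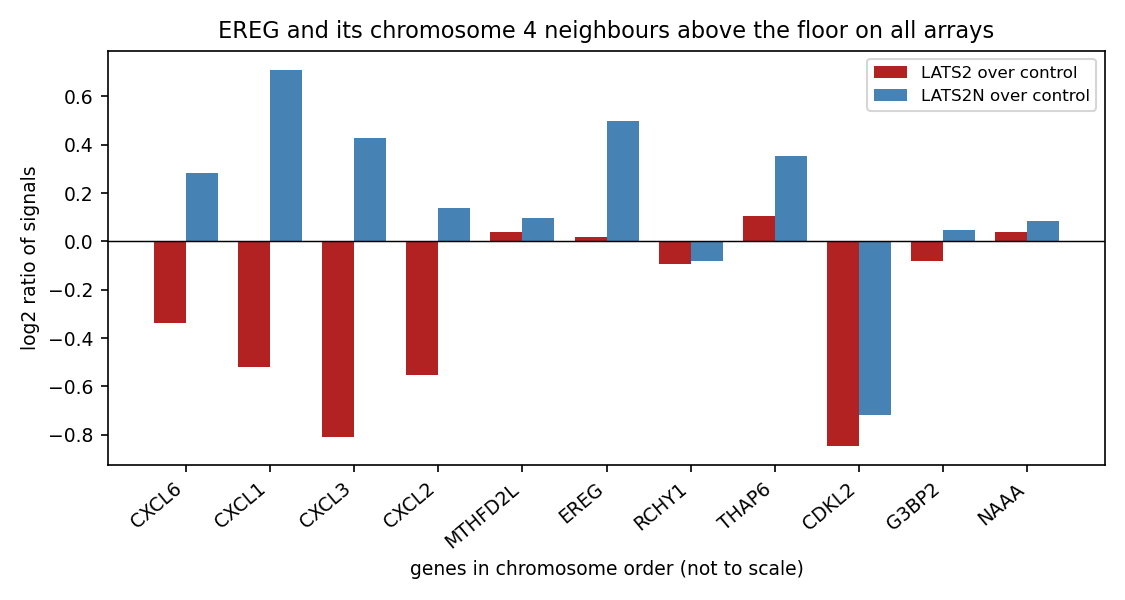
Log2 ratio of signals over control (vertical) on the LATS2 (red) and LATS2N (blue) arrays for EREG and its measured neighbours above the floor on all arrays, in chromosome order (horizontal, not to scale). The 4 CXC chemokine genes have red bars below 0 and blue bars above 0, while EREG has a blue bar at 0.50 and a red bar at 0.02.

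Beyond the family, other genes of the pathway were set beside the same shares of all genes called at 2-fold, 1.80% for LATS2 against control, 1.51% for LATS2N against control and 1.59% for LATS2 against LATS2N. At such shares a list of this size holds few calls or none, so a count of 0 is near the background and no result about a list. Of 8 genes for ligand shedding and trafficking 6 reached the floor and 0 were called in any comparison. The sheddase ADAM17 read 2832 on the LATS2, 2889 on the LATS2N and 2688 on the control array, and ADAM10, another sheddase, read 4179, 3928 and 4091. The metalloprotease ADAM9 had log2 ratios over control of -0.11 and 0.01, and FRMD8, which stabilises the ADAM17 complex, 0.32 and 0.04, for LATS2 and LATS2N.

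Among receptor adaptors, all 12 measured genes reached the floor, with medians of 0.12 for LATS2 and 0.03 for LATS2N over control, and 0 were called. GRB2, the adaptor that recruits the RAS exchange factor SOS, read 3316 on the LATS2, 3142 on the LATS2N and 3050 on the control array. SHC1, PTPN11 and CRKL had log2 ratios of 0.12, -0.07 and 0.22 for LATS2 over control. Of 17 measured genes of receptor feedback and degradation 0 were called, with medians of -0.09 and -0.10. One of them, CBLC, was below the floor on the LATS2N array, and its fold of 1.99 below control there is a lower limit. Their bright members included LRIG1, which lowers receptor levels, at 2199 on the LATS2, 2133 on the LATS2N and 2385 on the control array. NEDD4L, a ubiquitin ligase, read 2974, 2126 and 2038, while STUB1 and SH3KBP1 had log2 ratios of 0.08 and -0.09 for LATS2 over control.

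In the kinase branches the counts of calls were 0 as well. Of 13 RAS and ERK cascade genes 7 were measured, and the others were not analysed here. KSR1 was below the floor on the control array, and its fold of 1.99 above control on LATS2 is a lower limit. MAP2K1, the kinase of ERK, had log2 ratios over control of -0.02 and 0.07, and HRAS, MAP2K2 and ARAF lay between -0.15 and 0.07 on both construct arrays. Of 12 genes of the PI3K and AKT branch 8 were measured, with medians of 0.18 for LATS2 and -0.04 for LATS2N over control. PIK3CB, a catalytic PI3K subunit, read 1623 on the LATS2, 1061 on the LATS2N and 1389 on the control array, and AKT2, PDPK1 and RICTOR had log2 ratios of -0.05, 0.13 and 0.26 for LATS2 over control.

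The transcripts that ERK induces held 1 call, the single one among the pathway lists. All 20 reached the floor, 1 was called higher on the LATS2 array against control and 0 lower, beside 0.963% and 0.842% of all genes, and 0 were called in the other 2 comparisons. ETV1, an ETS transcription factor, read 1181 on the LATS2, 640 on the LATS2N and 471 on the control array, 2.51-fold higher on LATS2 than on control. The list's median log2 ratio was 0.10 for LATS2 and 0.11 for LATS2N over control. MYC, PHLDA1, IER3 and CCND1, named by their signal, had log2 ratios of 0.22, 0.10, -0.13 and -0.12 for LATS2 over control.

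**Figure D5:**
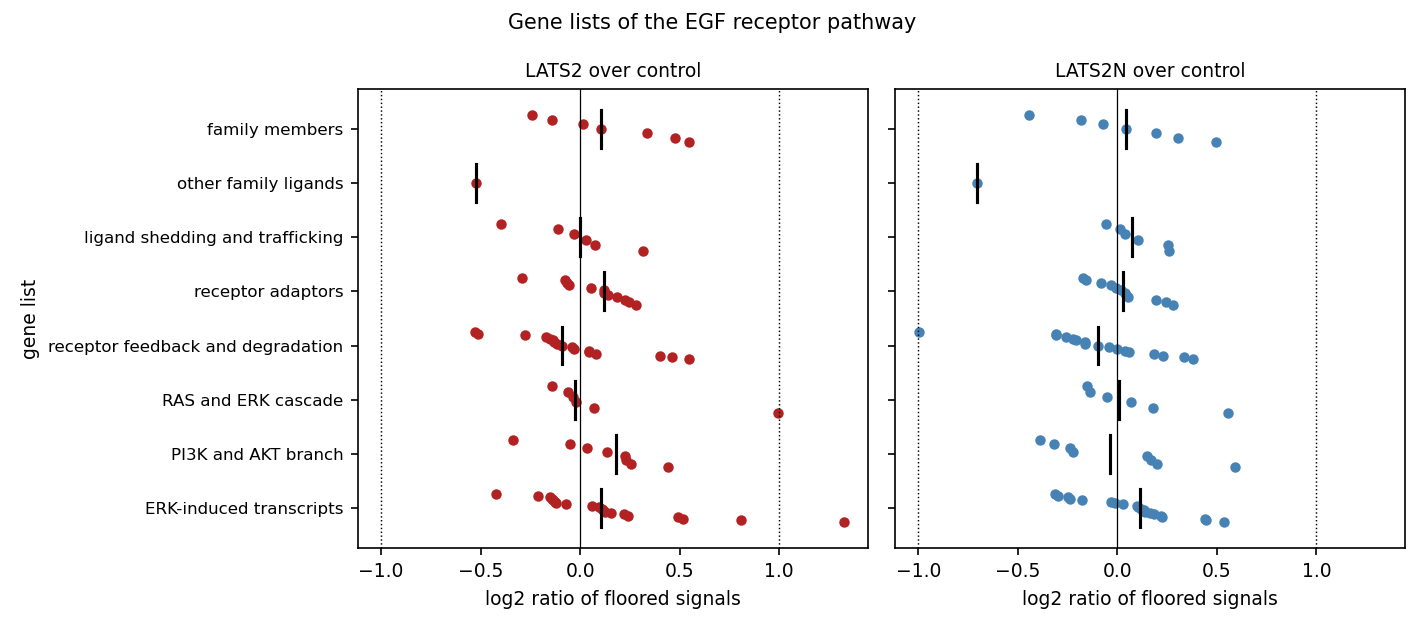
Log2 ratio of floored signals over control (horizontal) for each gene (points) of 8 lists (vertical), on the LATS2 and LATS2N arrays, with the list median as a black bar and dotted lines at 2-fold. ETV1, at 1.33 in the ERK-induced list on the LATS2 array, is the only point past a dotted line.

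Genes whose 3 signals ran most like a member's were looked for among 9227 other genes above the floor with a mean signal of at least 200, by the Euclidean distance between log2 signals centred on their mean. The 3 members with the widest range were ERBB3, EREG and ERBB2. Nearest to ERBB3 were ZDHHC12-DT, IFT74, DMXL1, NEDD4L and SLC30A1, at distances from 0.009 to 0.016. MYO9B, SLC25A23, DPM3, DMAC2L and BACE1 were nearest to EREG, and HSDL1, RNF14, DYNC2I2, IK and ZSCAN22 to ERBB2. Over only 3 arrays many genes run alike: 115 lay within 0.1 of ERBB3, 59 of EREG and 319 of ERBB2.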

How the data were processed

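Total RNA of SW620 cells was labelled with biotin as cRNA and hybridised to Affymetrix arrays, per the labels' protocols. The deposited intensities are linear probe set signals. The submitters' processing notes name MAS5, and its version is not given in the sources used here. The mean without the lowest and highest 2% of values was 500.1 on each of the 3 arrays, so each was scaled to a common target, which fixes that mean and not the level of a single gene.

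The platform annotation gave 1 symbol for 41091 of 54675 probe sets, several for 1801 and did not list 11721. Symbols were updated through gene identifiers to the RefSeq table of GRCh38.p14 (41037 matched), which gave 19775 genes, for each of which the brightest probe set by mean log2 signal was used. Signals below the median of all signals (50.5) were raised to that value, and ratios were formed on the log2 scale. Genes were compared where the brighter array reached this floor, and called at 2-fold. The number of arrays, 1 a group, limits the precision, and no test, interval or p-value was computed. Noise between probe sets is given as a robust SD, by signal, from the 2 brightest probe sets of each gene. The difference of their log2 ratios was divided by the square root of 2, which gives the SD of 1 probe set.

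The members and the 9 other gene lists were chosen with earlier results of these data known. Every member probe set is reported. Of the other lists, the called genes and the 4 brightest not called are named, and further genes are said to be chosen after their values were seen or named as neighbours or look-alikes by rule. A longer NF-kB motif was searched first and left out after its matches had been seen. The code that makes the calls was tested on simulated data. Python 3.11.15, numpy 2.4.6, pandas 2.3.3 and matplotlib 3.10.9 were used.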

Additional observations from a re-analysis of the deposited data

How the results depend on the processing

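No member was called at 2-fold in any of the 3 comparisons under any of 9 alternatives that kept that threshold, nor at 1.5-fold. These alternatives were a floor at the 25th or 75th percentile, no floor, a pseudocount of 50 and the median over probe sets. The others were no probe sets of possible shared targets, quantile normalisation, division by the median, and a signal of at least 500. Calls among all genes varied widely with the alternative. With the 75th-percentile floor, 0 of 8143 genes were called higher and 1 lower for LATS2N against control. With no floor, 1712 of 19775 genes were called higher and 1999 lower for LATS2 against control. A count of 0 among so few members is therefore no result about the family. The median log2 ratio of the members ran over these 9 alternatives from 0.06 to 0.41 for LATS2 over control, from -0.087 to 0.17 for LATS2N over control and from -0.019 to 0.25 for LATS2 over LATS2N, beside 0.11, 0.04 and 0.20 as reported. For LATS2 over control it was 0.34 over 5 members with the 75th-percentile floor, and 0.41 over 4 members at a signal of at least 500, where fewer members were measured. It had the opposite sign for LATS2N over control with the median over probe sets, and for LATS2 over LATS2N without probe sets of possible shared targets, which drops all 3 ERBB2 probe sets and changes the one used for EGFR. Of 156 values of single members under the alternatives, 13 had the opposite sign. Another floor, no floor or a pseudocount keeps the same signals and cannot turn a sign, so the share over all alternatives says little. The median over probe sets turned 8 of its 17 values. For LATS2 over control these were EGFR at 0.26, ERBB3 at -0.28, EREG at -0.45 and HBEGF at 0.28. For LATS2N over control they were EREG at -0.39, TGFA at -0.10 and HBEGF at 0.32, and for LATS2 over LATS2N ERBB3 at -0.45. This median is of the signals on each array, dim probe sets included, so it can set different probe sets against each other. For EGFR in LATS2 over control it set 1565483_at on LATS2 against 1565484_x_at on control. For EREG and HBEGF it took in 1569583_at and 244857_at, which were below the floor on all arrays. Leaving out probe sets of possible shared targets turned 3 of its 18 values, those of EGFR in all 3 comparisons, to 0.35, 0.51 and -0.17. Quantile normalisation turned EREG for LATS2 over control and TGFA for LATS2 over LATS2N, both close to 0. Ratios of ERBB2 over control kept their sign under all alternatives that measured it, but several of these could not have turned it. Another floor, no floor and the pseudocount keep the signals of its bright probe set. The median over probe sets reads ERBB2 from 234354_x_at and gave 0.32 for LATS2 over control. For LATS2N over control that median gave no ratio. The signals of 234354_x_at, 24.2 on the LATS2N and 43.2 on the control array, were both below the floor. Division by the median shifted the median of all genes by less than 0.1 on the log2 scale. No paired analysis was possible because each group has 1 array.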

Other observations

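Among ERK-induced transcripts that the naming rule does not cover, chosen after their values were seen, DUSP6, a phosphatase that turns ERK off, read 3609 on the LATS2, 2570 on the LATS2N and 2524 on the control array, 1.43-fold higher on LATS2 than on control, and ETV5, an ETS factor, read 2736, 2184 and 1948. FOSL1, an AP-1 subunit, instead read 1395 on the LATS2, 2110 on the LATS2N and 1550 on the control array, 1.51-fold lower on LATS2 than on LATS2N. SPRY2 and EPHA2, other ERK-induced genes, had log2 ratios of 0.12 and 0.11 for LATS2 over control. FOS read 285 on the LATS2, 236 on the LATS2N and 163 on the control array, 1.75-fold higher on LATS2 than on control. ETV4 read 903, 973 and 1210, and its log2 ratio of -0.42 was the lowest of the list for LATS2 over control. Of the 20 genes of the list, 12 lay above 0 and 8 below in that comparison. None of the genes named in this paragraph reached 2-fold.

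RHBDF1 and RHBDF2, the inactive rhomboids that carry ADAM17 to the cell surface, were higher on the LATS2N array than on either other array. RHBDF1 read 182 on the LATS2, 286 on the LATS2N and 240.2 on the control array, a log2 ratio of -0.65 for LATS2 over LATS2N, and RHBDF2 read 556, 680.3 and 568. KSR1, a scaffold of the ERK cascade, read 101 and 74.1 on the LATS2 and LATS2N arrays and 35.9, below the floor, on the control array. CBLC, a ubiquitin ligase, read 69.9 and 14.0 on the LATS2 and LATS2N arrays and 101 on the control array. With signals raised to the floor, KSR1 was at least 1.99-fold higher on LATS2 than on control, and CBLC at least 1.99-fold lower on LATS2N than on control. The floor thus decides that neither was called at 2-fold. All 4 genes of this paragraph were chosen after their values were seen.

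Probe sets of 1 gene often lay on both sides of 0 on these arrays. Of 5537 genes with at least 2 probe sets above the floor on all arrays, 52.3% had probe sets on both sides of 0 for LATS2 over control and 51.2% for LATS2N over control. Of the 4 such members, EGFR, ERBB3, TGFA and HBEGF, all had them for LATS2 over control, and all but HBEGF for LATS2N over control. These shares are not matched for the number of probe sets, and more probe sets lie on both sides more easily. Of the 5537 genes 3124 had 2 probe sets, as HBEGF did, while EGFR had 4 and ERBB3 and TGFA 3. A ratio read from a single probe set, as for ERBB2 and EREG, has no such check.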
